A study of Mus musculus with 24 samples.

Results

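The dystrophin glycoprotein complex and its syntrophins were followed through 8 genes, chosen by symbol for their place in the complex: Dmd, Utrn, Dag1, Sgca, Sgcb, Dtna, Sntb1 and Sntb2. They are 8 of the 15439 genes with reads in C2C12, a mouse myoblast line able to fuse into muscle cells. Only 2 of them, Dag1 and Sgcb, had any read in NSC34, a mouse motor-neuron-like line, in which 7557 genes were read. Reads were counted per transcript and summed per gene.

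C2C12 grown together with NSC34 for 3 days (co-culture, n = 6) was set against C2C12 kept without it (control, n = 6), and NSC34 was sampled in the same way (n = 6 each), 24 libraries in all. All groups carry the genotype WT in the labels, and no transgene or drug is named. Each line is a single established line, and the way C2C12 and NSC34 were separated for collection is not stated. The RNA was total RNA, read as long reads on an Oxford Nanopore MinION. Whether a library stands for a separate culture is not stated, so the p-values measure the spread between libraries, which may be technical.

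The complex ties the actin skeleton inside a muscle fibre to laminin outside it. Dystrophin, or its relative utrophin at the neuromuscular junction, binds actin and the membrane protein dystroglycan, the sarcoglycans brace dystroglycan, and dystrobrevin with the syntrophins forms the cytoplasmic side that holds signalling proteins. In muscle the complex is known for protecting the membrane during contraction, for the muscular dystrophies caused by its loss, and for helping to stabilise acetylcholine receptor clusters under the nerve terminal.

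C2C12 libraries held 143502 to 547071 reads in co-culture and 121154 to 658075 in control, and NSC34 libraries held 2807 to 30314 in co-culture and 88 to 4624 in control. The mean length of the transcripts read, weighted by reads, was 1796 ± 54.3 bases in co-cultured C2C12 and 1885 ± 71.5 bases in control C2C12 (SD, n = 6 each). All 9 differentiated muscle markers and all 5 myoblast markers were read in C2C12. The muscle markers summed to 10861 to 12376 CPM (reads of a gene scaled to a common library total, over all reads) in co-culture and to 8628 to 10868 CPM in control. By edgeR 4 of the 9 rose (Mb, Ckm, Tnnt1 and Myog) and 0 fell, where 0.817% of genes past the filter rose. Without a filter 5 rose, with Des added, and Ttn, the titin gene, fell, where 0.356% of genes rose and 0.33% fell. The call of Ttn depends on the fit. Its SE was 0.110 without a filter and 0.201 with it (edgeR adjusted p = 2.36e-04 and 0.104). Ttn averaged 760 ± 154 CPM in co-culture and 1158 ± 484 CPM in control, and Myh3, an embryonic myosin, 359 ± 96.4 CPM in co-culture and 447 ± 165 CPM in control (SD, n = 6 each). The most-read of the 17 neuron markers in C2C12, Stmn2, averaged 103 ± 18.3 CPM in co-culture and 116 ± 38.8 CPM in control. That whole list summed to 190 to 222 CPM in co-cultured and 189 to 248 CPM in control C2C12, with Chat, Slc18a3, Slc5a7, Isl1, Mnx1 and Ina at 0 in both. The 5 myoblast markers summed to 97.6 to 231 CPM in co-culture and 111 to 151 CPM in control, 5 fibroblast markers to 399 to 475 CPM in co-culture and 299 to 547 CPM in control, and 6 glial markers to 0 to 13.9 CPM in co-culture and 0 to 9.38 CPM in control, with Sox10 and Gfap at 0. The filter left 2 neuron, 1 myoblast, 2 fibroblast and 0 glial markers to test, and none of those 5 was called by edgeR. Myod1, a myoblast regulator with too few reads for the filter, averaged 43.3 ± 18.0 CPM in co-culture and 16.5 ± 9.96 CPM in control (SD, n = 6 each), and the edgeR fit with no filter gave it 1.20 with an adjusted p of 0.0593. Among the other most-read markers, the fitted log2 differences were 0.21 for Acta1 (skeletal actin), 0.31 for Cdh15 (a myoblast cadherin), -0.27 for Tubb3 (a neuronal tubulin), -0.08 for Col1a1 (a collagen chain) and 0.20 for Dcn (decorin), and the glial gene S100b had 6 reads in all. In NSC34 the 17 neuron markers summed to 1256 to 3315 CPM in co-culture and to 0 to 3650 CPM in control. Of the 17, 10 had reads in co-culture (129 reads) and 8 in control (32 reads). Tubb3, named for its reads in C2C12, had 26 of these and was not the only one read. Map2, Stmn2, Nefm, Slc18a3, Slc5a7 and Mnx1 were at 0 in both groups. At the NSC34 depth that allows each up to 54.5 CPM in co-culture and 189 CPM in control (3 reads of the group total). In such bulk libraries, fewer cells of a type and less RNA per cell cannot be told apart.

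A row is the count of a single annotated transcript. Rows Utrn-201, Utrn-205 and Utrn-206, and likewise rows Sgca-201, Sgca-202 and Sgca-203, carry the same coding end, so a read from that end alone does not tell them apart. Those ends are shown as a stretch that the rows, whose reads are described further on, have in common. The sequences come from the GENCODE M21 transcripts of GRCm38, in the transcript's own direction, and are the last 90 coding bases before the stop codon, in lower case since nothing in them differs between the rows. Utrn lies on the minus strand of chromosome 10 (12382188 to 12869365), and Sgca on the minus strand of chromosome 11 (94962791 to 94976327).
Utrn-201, Utrn-205 and Utrn-206: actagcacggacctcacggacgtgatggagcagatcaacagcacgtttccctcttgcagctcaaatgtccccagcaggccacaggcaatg
Sgca-201, Sgca-202 and Sgca-203: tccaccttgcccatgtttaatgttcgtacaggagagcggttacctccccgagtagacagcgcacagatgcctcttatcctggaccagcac

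The Utrn-206 coding sequence starts unlike anything in Utrn-201 or Utrn-205, the rows searched for its first bases. Its first 90 coding bases are shown with the 50 that neither Utrn-201 nor Utrn-205 holds in capitals (positions 883 to 932 of the transcript), and the remainder, shared with both, in lower case.
Utrn-206: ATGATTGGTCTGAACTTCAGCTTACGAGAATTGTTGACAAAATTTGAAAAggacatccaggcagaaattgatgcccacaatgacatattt

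In C2C12 the 8 genes together took 464 reads in co-culture and 416 in control, or 256 ± 39.5 CPM in co-culture and 272 ± 78.5 CPM in control (mean ± SD of libraries, n = 6 each). The groups overlapped, and no member was called different. Of the 8, Dag1 and Sgcb passed the filter on low counts, and 6 did not and were read from a fit with no filter. By edgeR's quasi-likelihood test 0 of 8 were called at an adjusted p under 0.05, where 1.44% of the 2570 genes past the filter and 0.687% of the 15439 genes without a filter were called. At an unadjusted p under 0.05 there was 1 of 8, Utrn, against 7.81% of genes without a filter. DESeq2 likewise had 1 of 8, again Utrn, at an unadjusted p under 0.05, and gave no adjusted p for any member. Of the fold changes without a filter, 5 were above 0 and 3 below, with a median of 0.09 on the log2 scale against 0.01 over all genes. Scaling alone moved values by as much. Without a filter, the 2570 genes that pass it shifted by a median of 0.087, and library totals shifted the fit without a filter by a median of -0.093. The median of the members and their count of signs thus depend on the scaling. No member had all co-cultured libraries on one side of all controls (0 of 8, where 0.551% of genes without a filter did).

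**Figure D1:**
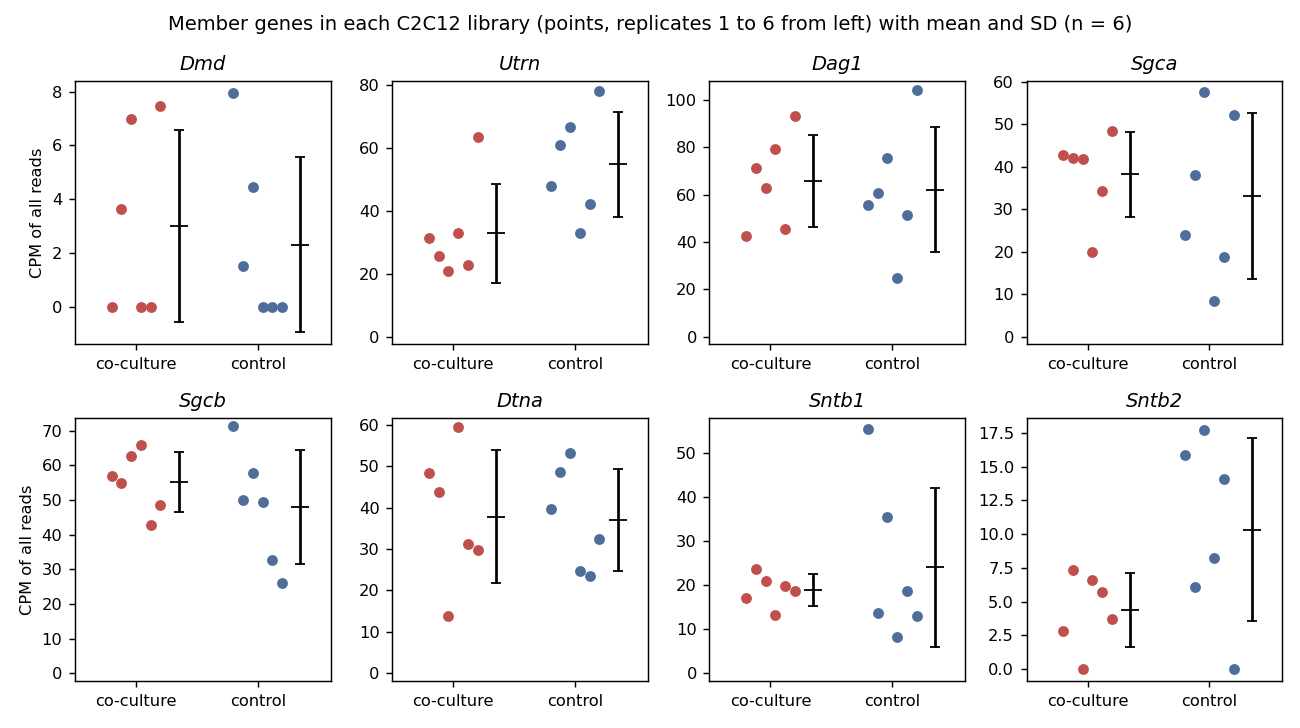
CPM of all reads (y axis) of the 8 genes in each C2C12 library, co-culture (red) left of control (blue), with points in order of replicate 1 to 6 and the mean and SD (n = 6) beside them. Utrn has 4 co-cultured libraries below all 6 controls and 1, at 63.4 CPM, among the upper controls. The groups overlap in all 8 genes.

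Dmd codes for dystrophin, the long rod that links actin to dystroglycan (ENSMUSG00000045103, plus strand of chromosome X, 82948870 to 85206141). It was barely read: 5 reads in co-culture and 3 in control, in 3 libraries of each group. Its pooled level was 2.76 CPM in co-culture (95% exact Clopper-Pearson interval 0.896 to 6.44) and 2.0 CPM in control (0.413 to 5.86). Such intervals and limits reflect counting error alone, because the tables hold reads and not counted molecules. Dmd stood at 0.46 on the log2 scale (SE 0.926), with an interval from -1.36 to 2.27 and an edgeR adjusted p = 0.882, so a change in either direction was not detectable at this depth. Of its 8 reads, 3 fell on Dmd-203, a protein-coding row of 14910 bases, and 5 on 3 rows annotated as retained introns.

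Utrn codes for utrophin, the relative of dystrophin that is concentrated at the neuromuscular junction (ENSMUSG00000019820). It was lower in co-culture in most libraries, without passing the adjusted threshold. It had 11, 14, 3, 5, 8 and 17 reads in co-culture libraries 1 to 6, and 6, 40, 15, 4, 9 and 12 in control libraries 1 to 6. Co-cultured libraries held 20.9 CPM at the lowest, 28.5 at the median and 63.4 at the highest, and controls 33.02, 54.2 and 78.1 CPM. The level was under the control median in 5 of 6 co-cultures and above it in co-culture 6.

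The mean of Utrn was 32.8 ± 15.7 CPM in co-culture and 54.7 ± 16.7 CPM in control (SD, n = 6 each). The log2 fold change was -0.69 (SE 0.291, 95% interval -1.26 to -0.12), a level of 0.619 of control, with an unadjusted p = 0.0173 and an edgeR adjusted p = 0.442. Ordered by p, it took place 601 among 15439 genes. DESeq2 gave -0.73 (unadjusted p = 0.0403). Without co-culture 6 the value was -1.01, with an edgeR adjusted p = 0.142. With any other single library left out it was -0.78 to -0.62, with an edgeR adjusted p of 0.340 to 0.651.

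Transcript length moved with the same contrast. Among 5 equal bins of genes past the filter, ordered by transcript length, the median log2 fold change was 0.07, 0.03, -0.01, -0.05 and -0.15 from the shortest to the longest. With that trend removed from each library, Utrn, whose rows average 7.87 kb, stood at -0.49 (SE 0.288, unadjusted p = 0.0907, edgeR adjusted p = 0.629).

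**Figure D2:**
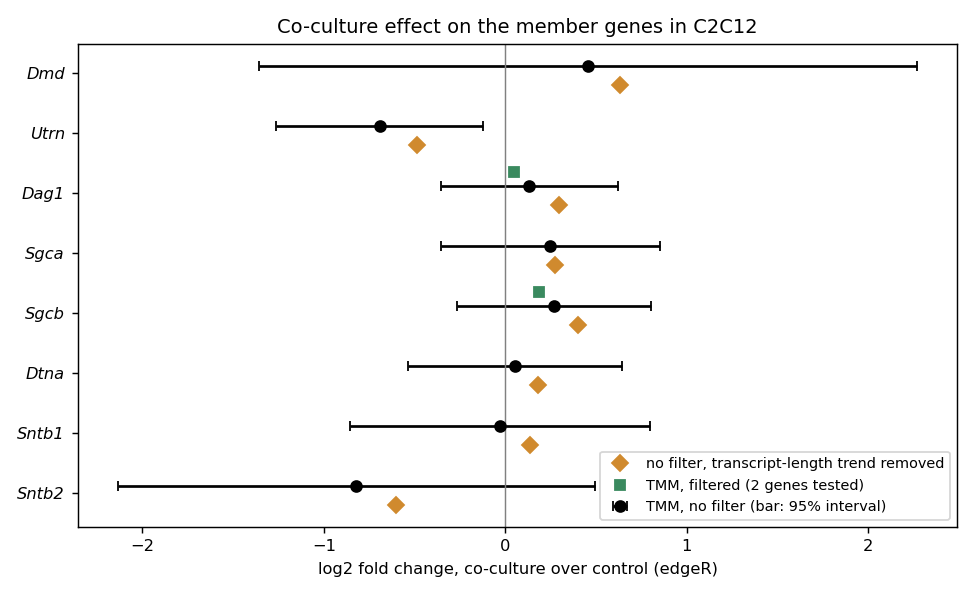
Log2 fold change of each gene, co-culture over control (x axis), from edgeR without a filter (black, 95% interval), without a filter and with the transcript-length trend removed (orange), and with the filter where the gene passed it (green). The interval of Utrn (-1.26 to -0.12) lies below 0, and the other 7 include 0.

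Dag1, which codes for the alpha and beta parts of dystroglycan, the laminin receptor of the complex (ENSMUSG00000039952, minus strand of chromosome 9, 108204634 to 108263958), did not separate the groups of C2C12. It had 15, 39, 9, 12, 16 and 25 reads in co-culture libraries 1 to 6, and 7, 40, 17, 3, 11 and 16 in control libraries 1 to 6. Co-cultured libraries held 42.7 to 93.3 CPM with a median of 67.0, inside the control range of 24.8 to 104 CPM with a median of 58.2. The mean was 65.8 ± 19.6 CPM in co-culture and 62.1 ± 26.4 CPM in control (SD, n = 6 each). The fitted log2 difference was 0.05 (SE 0.256), and edgeR gave an adjusted p = 0.973.

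Sgca and Sgcb code for alpha- and beta-sarcoglycan, 2 of the membrane proteins that brace dystroglycan, and neither passed. Sgca is a gene of striated muscle. It (ENSMUSG00000001508) ranged from 19.8 to 48.5 CPM in co-culture (median 41.9) and from 8.25 to 57.7 CPM in control (median 30.9). All 6 co-cultured libraries lay within the control range, and 5 of 6 lay above the control median. The mean was 38.2 ± 10.1 CPM in co-culture and 33.1 ± 19.5 CPM in control (SD, n = 6 each). Fitted without a filter, Sgca stood at 0.25 on the log2 scale (SE 0.308, interval -0.36 to 0.85), at an edgeR adjusted p = 0.769.

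Sgcb (ENSMUSG00000029156, minus strand of chromosome 5, 73632749 to 73647790) had 20, 30, 9, 10, 15 and 13 reads in co-culture libraries 1 to 6, and 9, 33, 13, 6, 7 and 4 in control libraries 1 to 6. That is 42.7 to 66.0 CPM in co-culture and 26.0 to 71.5 CPM in control. The co-cultured libraries were the closer together, and all lay within the control range. The mean was 55.3 ± 8.70 CPM in co-culture and 48.0 ± 16.5 CPM in control (SD, n = 6 each). Its log2 difference of 0.19 (SE 0.230) had an edgeR adjusted p = 0.814. Of the 9 muscle markers described above, 7 had fitted differences above 0 and 2, Ttn and Myh3, below 0. Myog, the gene for myogenin, a driver of muscle differentiation, rose (log2 fold change 0.43, edgeR adjusted p = 0.0457), while Ttn had -0.64 (edgeR adjusted p = 0.104). Their part in the sarcoglycan values was not tested.

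Dtna codes for alpha-dystrobrevin, which binds dystrophin or utrophin and carries the syntrophins (ENSMUSG00000024302, plus strand of chromosome 18, 23415135 to 23659715). Its level did not separate the groups. It ranged from 13.9 to 59.4 CPM in co-culture (median 37.6) and from 23.5 to 53.3 CPM in control (median 36.1). The co-cultured libraries were both the highest and the lowest of the 12. The mean was 37.8 ± 16.1 CPM in co-culture and 37.1 ± 12.3 CPM in control (SD, n = 6 each), a log2 difference of 0.06 (SE 0.302, interval -0.54 to 0.65), with an edgeR adjusted p = 0.981.

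Sntb1 and Sntb2 code for beta-1- and beta-2-syntrophin, adaptors that join the complex to signalling enzymes and channels. Sntb1 (ENSMUSG00000060429, minus strand of chromosome 15, 55636388 to 55906949) ranged from 13.2 to 23.8 CPM in co-culture (median 19.3) and from 8.25 to 55.6 CPM in control (median 16.2). The control range enclosed all co-cultured libraries, with controls 1 and 3 the highest. The mean was 18.9 ± 3.59 CPM in co-culture and 24.1 ± 18.1 CPM in control (SD, n = 6 each). The fit put Sntb1 at -0.03 on the log2 scale (SE 0.422), with an edgeR adjusted p = 0.981.

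Sntb2 (ENSMUSG00000041308, plus strand of chromosome 8, 106935750 to 107019714) had 1, 4, 0, 1, 2 and 1 reads in co-culture libraries 1 to 6, and 2, 4, 4, 1, 3 and 0 in control libraries 1 to 6. Every co-cultured library (6 of 6) was under the control median of 11.2 CPM, and control 6 had no read. The mean was 4.36 ± 2.73 CPM in co-culture and 10.3 ± 6.77 CPM in control (SD, n = 6 each). The fitted difference of -0.82 on the log2 scale (SE 0.671, interval -2.14 to 0.49) did not pass (unadjusted p = 0.221, edgeR adjusted p = 0.611). It rests on 23 reads, 9 in co-culture and 14 in control. Its rows average 9.25 kb, the longest of the 8 genes, and with the length trend removed the value was -0.60 (edgeR adjusted p = 0.722).

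**Figure D3:**
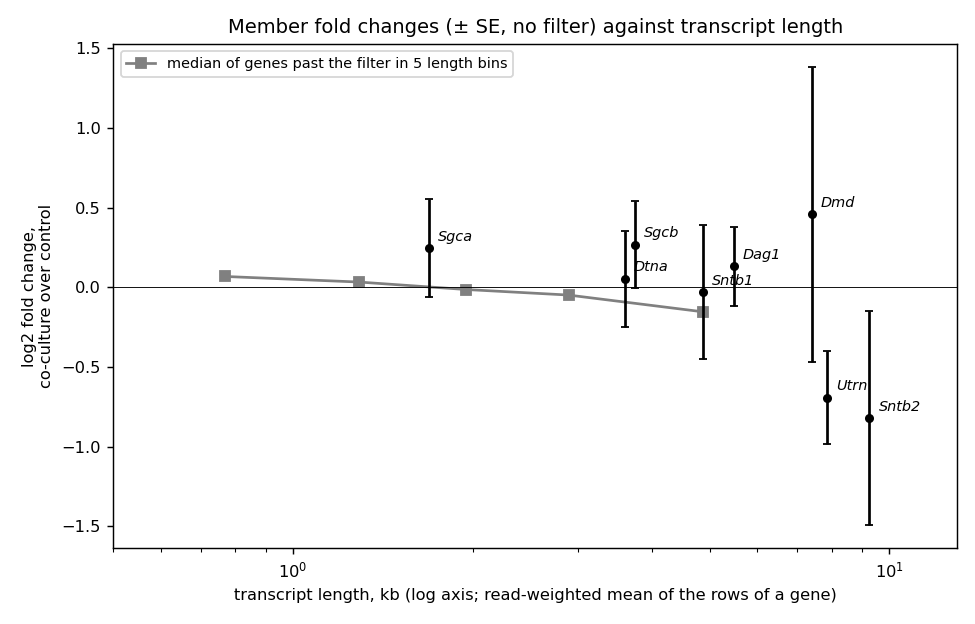
Log2 fold change without a filter (y axis, black points, ± SE) of the 8 genes against the read-weighted mean length of their transcript rows in kb (x axis, log scale), with the median of genes past the filter in 5 length bins in grey. Each bin is drawn at its median length, and the grey line goes from 0.07 in the shortest bin to -0.15 in the longest. Utrn and Sntb2, at 7.87 and 9.25 kb, lie below that last value, and Dmd, at 7.42 kb, lies above it with a wide error.

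Levels of different genes were compared per kb of transcript, over all 12 C2C12 libraries. Sgca was the highest, at 21.1 ± 8.90 CPM per kb, followed by Sgcb at 13.8 ± 3.51, Dag1 at 11.7 ± 4.07 and Dtna at 10.4 ± 3.80 CPM per kb (SD, n = 12). Utrn stood at 5.57 ± 2.45, Sntb1 at 4.43 ± 2.62, Sntb2 at 0.794 ± 0.630 and Dmd at 0.359 ± 0.441 CPM per kb. Only 2 steps in this order exceeded the combined spread of the neighbours: Dtna over Utrn, in 11 of 12 libraries, and Sntb1 over Sntb2, in 12 of 12. The other neighbours did not differ beyond their spread. The order depends on the division by length, and whether counts of long reads need that division was not tested. Without it Dag1 was the highest. The mean of Utrn then lay above that of Dtna, the reverse of the step above, though within their spread (SD 19.2 and 13.7 CPM, n = 12). As reads per library, not divided by length, the means were 63.9 CPM for Dag1, 51.6 for Sgcb, 43.8 for Utrn, 37.4 for Dtna, 35.6 for Sgca, 21.5 for Sntb1, 7.35 for Sntb2 and 2.67 CPM for Dmd.

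The deposited tables count transcripts, and 34 rows of the 8 genes had reads in C2C12, of which 11 had at least 20. By edgeR 0 of the 2 rows past the filter, Dag1-204 and Sgcb-201, were called, where 0.387% of all rows past the filter were. In the fit without a filter 0 of 34 were called, against 0.334% of all rows, and 1 of 34 had an unadjusted p under 0.05, Utrn-213, a retained-intron row of 3 reads. DESeq2 without a filter called 0 of 34, had 0 at an unadjusted p under 0.05, and gave no adjusted p for 32 of them. Dag1-204 carried 201 of 210 Dag1 reads, Sgcb-201 carried 167 of 169 Sgcb reads, Sntb1-201 carried 66 of 67 Sntb1 reads and Sntb2-203 carried 21 of 23 Sntb2 reads. The reads of those 4 genes were thus counted almost wholly on a single protein-coding row. Rows with fewer than 5 reads were not compared with it in sequence, so which transcript the reads came from is uncertain. Dag1-204 had a log2 fold change of 0.05 and Sgcb-201 one of 0.21 with the filter, and Sntb1-201 one of -0.21 and Sntb2-203 one of -0.69 without it.

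Utrn was divided among several rows. Utrn-206, with a coding length of 2868 bases, had 9, 0, 2, 0, 7 and 5 reads in co-culture libraries 1 to 6, and 4, 18, 8, 3, 4 and 6 in control libraries 1 to 6. Utrn-205, with a coding length of 10290 bases, had 2, 2, 1, 0, 0 and 9 reads in co-culture and 0, 13, 4, 1, 2 and 5 in control. Utrn-201, with that same coding length, had 0, 11, 0, 5, 1 and 0 reads in co-culture and 0, 0, 0, 0, 3 and 0 in control. Co-culture libraries 2 and 4 thus had no read on Utrn-206 and most of their reads on Utrn-201, a row at 0 in 5 of 6 controls.

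None of these Utrn rows passed. Without a filter Utrn-206 stood at -1.04 on the log2 scale (edgeR adjusted p = 0.510), Utrn-205 at -0.77 (adjusted p = 0.549) and Utrn-201 at 1.83 (adjusted p = 0.510). The rows overlap in sequence. Utrn-205 and Utrn-201 share a run of 11190 bases, 94.8% of the first and 90.4% of the second. From the base after the 50 shown in capitals, Utrn-206 is identical to Utrn-201 for 4819 bases, to the end of Utrn-206. That is 83.8% of the length of Utrn-206, which shares 3629 of those bases with Utrn-205. The split between these rows is therefore uncertain, while the sum over all Utrn rows is the gene value given above.

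Sgca was read mostly as Sgca-202, with 116 of 126 reads. Sgca-201 lies wholly inside Sgca-202, which extends 228 bases further at its 5′ end and 31 further at its 3′ end. Sgca-201 had reads in 3 libraries, with 4 in co-culture 2, 2 in co-culture 4 and 2 in control 5. These are the libraries with the most Utrn-201 reads among the co-cultures, and the one control with any. Such all-or-none rows were not confined to these genes: of 974 genes with several rows and at least 10 reads in every library, 30 (3.08%) had a row that took at most 5% of the gene's reads in one library and at least 95% in another. Sgca, with 1 read in control 4, and Utrn, with 3 in co-culture 3, do not meet that rule on reads. Their rows can therefore not be set against that share.

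Dtna was read mainly on 3 rows, with 43 reads on Dtna-201, 42 on Dtna-206 and 25 on Dtna-202. Dtna-202, the longest of them at 6295 bases, had 7, 5, 1, 0, 6 and 2 reads in co-culture libraries 1 to 6, and 2, 0, 0, 0, 0 and 2 in control libraries 1 to 6. That is 5 of 6 co-cultured libraries with reads and 2 of 6 controls. Its difference of 1.57 on the log2 scale (SE 0.947, lower bound -0.28) did not pass (unadjusted p = 0.0966, edgeR adjusted p = 0.510). Dtna-201 had 0.36 and Dtna-206 had -0.52, both with intervals that include 0. Dtna-201 shares 1332 of its 1596 bases with Dtna-206, so this split is uncertain too.

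**Figure D4:**
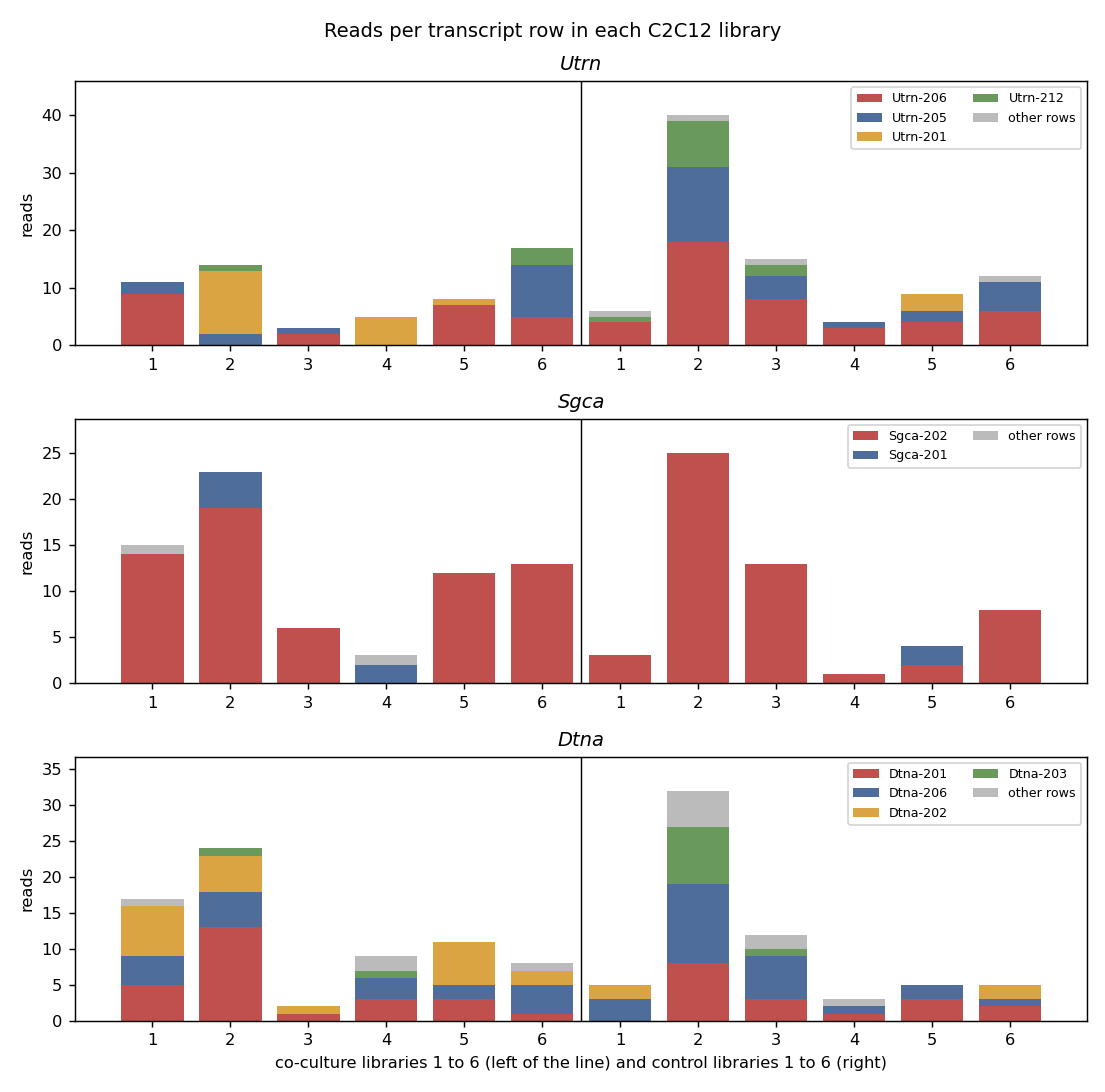
Reads (y axis) on each transcript row of Utrn, Sgca and Dtna, stacked, in co-culture libraries 1 to 6 left of the line and control libraries 1 to 6 right of it. Co-culture 2 and 4 have 11 and 5 reads on Utrn-201 and none on Utrn-206, and the same libraries have reads on Sgca-201.

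The share of a gene's reads on its most-read row was compared for the 6 members read in every library, by exact permutation of the 12 libraries, two-sided. None passed: 0 of 6 had an unadjusted p under 0.05, and each adjusted p over the 4168 genes so tested was 1.0, where 0.0% of genes were called and 132 had an unadjusted p under 0.05. The smallest p of this design is 0.00216, and at that p 181 genes would be needed for a call over 4168, so the adjusted test could not have called any gene here. Utrn-206 took 44.2 ± 39.8% of Utrn reads in co-culture and 55.7 ± 12.4% in control (SD, n = 6 each, exact p = 0.494). The spread among co-cultured libraries ran from 0% to 87.5%. Sgca-202 took 79.3 ± 39.5% of Sgca reads in co-culture and 91.7 ± 20.4% in control (exact p = 0.576), and Dtna-201 took 34.4 ± 15.4% of Dtna reads in co-culture and 30.6 ± 19.8% in control (exact p = 0.712). Dag1, Sgcb and Sntb1 had mean shares of 95.1%, 100% and 97.6% in co-culture and of 96.5%, 98.2% and 100% in control.

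The other genes of the pathway were read from a list of 55 in 6 groups: further sarcoglycans, further syntrophins and dystrobrevin, dystroglycan glycosylation, matrix ligands, scaffold proteins and parallel adhesion. Of these 46 had reads in C2C12 and 12 passed the filter. By edgeR 0 rose and 0 fell, where 0.817% of genes past the filter rose and 0.623% fell. At an unadjusted p under 0.05 there were 3 of 12, Bgn, Itgb1 and Plec, against 14.7% of genes past the filter, and DESeq2 called 2 of the 6 to which it gave an adjusted p, Bgn and Plec, against 5.7% of all genes so adjusted. Without a filter 5 of 46 had an unadjusted p under 0.05 in edgeR, against 7.81% of genes. They add Sync (-1.50) and Vcl (-0.66), the syncoilin and vinculin genes, and edgeR called 0 of the 46. DESeq2 without a filter called Plec alone, of 3 given an adjusted p, against 8.55% of all genes so adjusted. The median of the 12 was -0.11 on the log2 scale, with 5 above 0 and 7 below, against 0.002 over all genes past the filter.

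Plec, which codes for plectin, a linker of intermediate filaments to the complex, averaged 162 ± 25.03 CPM in co-culture and 253 ± 68.8 CPM in control (SD, n = 6 each). On the log2 scale it stood at -0.61 (SE 0.165), with an edgeR adjusted p = 0.0553. The adjusted p was 0.0274 with DESeq2 and 0.0459 with library totals, and in edgeR 0.0337 without control 5 and 0.0244 without control 6. Every other setting run left it over 0.05. In edgeR it was 0.0978 without a filter, 0.136 with the replicate block and 0.256 with libraries under 150000 reads left out. Leaving out control 3 gave 0.165 in edgeR. With the length trend removed, Plec was at -0.34 (edgeR adjusted p = 0.360). Bgn codes for biglycan, a matrix proteoglycan that binds dystroglycan and sarcoglycans. It averaged 276 ± 35.5 CPM in co-culture and 367 ± 55.0 CPM in control, with a fitted difference of -0.41 on the log2 scale (SE 0.116), at an adjusted p = 0.068 by edgeR and 0.0496 by DESeq2. The edgeR and limma-voom alternatives gave Bgn an adjusted p of 0.0536 to 0.492.

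Itgb1, the beta-1 integrin subunit of the parallel laminin receptor, stood at -0.51 on the log2 scale (SE 0.161), and its edgeR adjusted p was 0.108. Its muscle partner Itga7 was at 0.20 (adjusted p = 0.637) and Ilk, integrin-linked kinase, at 0.26 (adjusted p = 0.682). Cav3, the muscle caveolin that binds dystroglycan, had -0.33 (edgeR adjusted p = 0.439). The mannosylation subunits Dpm1, Dpm2 and Dpm3 had -0.12, 0.13 and 0.03, and the matrix proteoglycan perlecan, Hspg2, had 0.03.

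Seen without a filter, sarcospan (Sspn) and epsilon-sarcoglycan (Sgce) had log2 fold changes of 0.09 and 0.18. Beta-dystrobrevin (Dtnb) had 0.56 (SE 0.335, edgeR adjusted p = 0.611). The laminin chain Lama2 had -0.36 and ankyrin Ank3 had 0.13. Every one of these 5 intervals includes 0. Nos1, the neuronal nitric oxide synthase that syntrophins anchor, and Aqp4, the water channel they hold, had no read in C2C12, nor had the gamma-syntrophins Sntg1 and Sntg2.

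**Figure D5:**
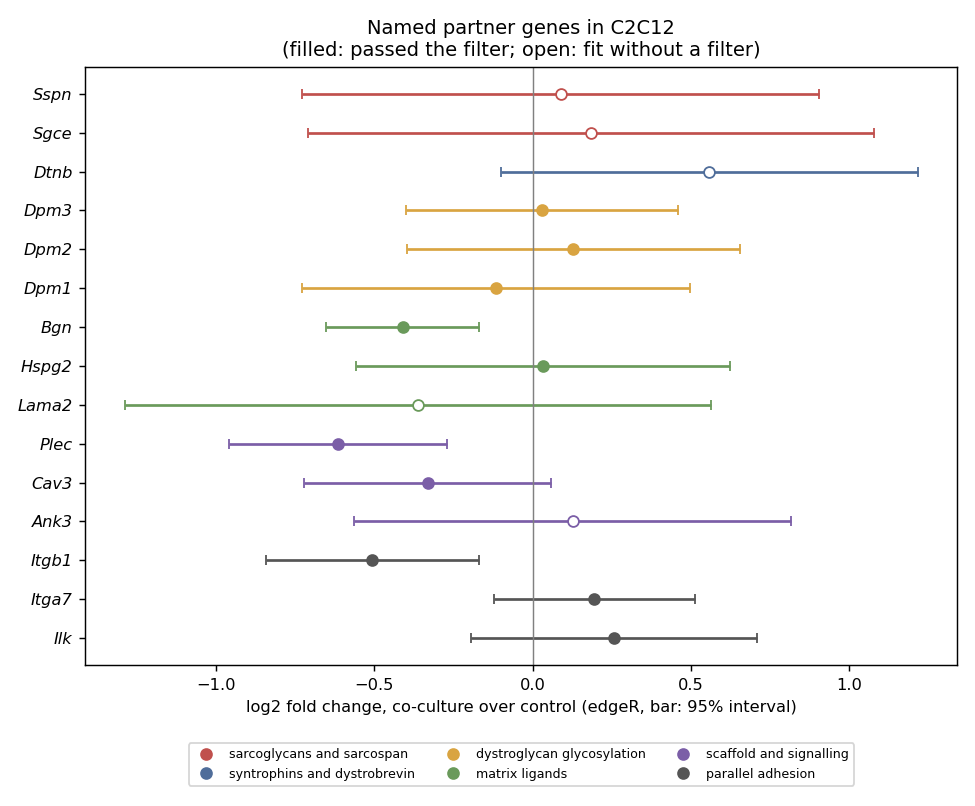
Log2 fold change, co-culture over control in C2C12 (x axis, edgeR, 95% interval), of genes named from the 55-gene list, coloured by group. Filled points passed the filter and open points come from the fit without one. Plec (-0.61), Bgn (-0.41) and Itgb1 (-0.51) have intervals below 0, and none passed the adjusted threshold.

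In NSC34 the 8 genes were nearly unread. There was 1 Dag1 read on Dag1-202 in co-culture 5 and 1 Sgcb read, on a retained-intron row, in control 3. That is 2 reads of 70865, or 28.2 CPM for the 8 genes together (exact interval 3.42 to 102 CPM), against 266 CPM in C2C12 (249 to 284 CPM). Without co-culture 2, which holds 30314 of the NSC34 reads, the 2 reads made 49.3 CPM (5.97 to 178 CPM). Both intervals cover counting error only, and the lines were not compared by a test. The other 6 members were at 0 in NSC34, which allows up to 42.3 CPM each (3 reads of the total). That limit lies above the pooled C2C12 level of Dtna, Sgca, Sntb1, Sntb2 and Dmd, at 40.2, 38.1, 20.2, 6.95 and 2.42 CPM, and just below that of Utrn at 43.5 CPM. The upper end of the exact interval for 0 reads, 52.1 CPM, lies above all 6, Utrn included. Gene by gene, a level like that of C2C12 was therefore near or under what this depth could show. The filter left 49 genes in NSC34, none of the 8 among them, and 0 of those 49 were called by edgeR (0.0%, 1 at an unadjusted p under 0.05). A co-culture effect on the complex in NSC34 was therefore not tested. Dtnb, the beta-dystrobrevin gene, had 9 reads in NSC34.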

How the data were processed

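The authors deposited counts: 1 table per line with the whole number of Nanopore reads on each Ensembl transcript, not normalized. The build is GRCm38, per the submitters' processing notes. Which aligner, counter and annotation release were used, and whether strand was, is not given in the sources used here. Columns were matched to samples by name, and 0 were left over. Transcript identifiers without versions were looked up in GENCODE M21 (37415 of 37677 matched in C2C12, 10374 of 10427 in NSC34), and counts were summed per gene. Levels are CPM of all reads of a library.

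Each line was fitted apart over all its genes in R 4.3.3 by edgeR 4.0.16 (the filter filterByExpr given the group, minimum count 10, about 45.6 CPM at the median C2C12 depth; TMM; quasi-likelihood F test; Benjamini-Hochberg adjusted p under 0.05). Members under the filter were read from a fit with no filter, an alternative added after seeing the data. Main-row shares were compared by exact permutation in Python 3.11.15. Their p-values were adjusted over all genes that met the rule in place of the planned adjustment over the members. Alternatives were DESeq2 1.42.0, limma-voom (limma 3.58.1) with quality weights, RLE factors, unscaled library totals, other filters, a length trend removed (loess, span 0.5), mitochondrial genes left out, libraries under 150000 reads left out, a replicate block and each library left out in turn. Leaving out control libraries 1 and 4 together was added after seeing the data.

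Depth was 121154 to 658075 reads per C2C12 library and 88 to 30314 per NSC34 library. The limit for a gene with no read is 3 reads of the total, and intervals are exact Clopper-Pearson intervals at 95%, for counting error only. Tested on simulated data, edgeR (2558 simulated C2C12 genes fitted) called 26 of 67 genes changed 1.5-fold, 52 of 67 changed 2-fold, 48 of 66 changed 4-fold and 7 of 2267 unchanged. The changed genes were drawn from those past the filter. The fit without a filter was not simulated, so these rates do not cover the 6 members under it. The permutation test gave an unadjusted p under 0.05 to 100 of 100 changed and 95 of 1900 unchanged shares. These were simulated with a change of 20 points and a noise SD of 5. The SDs of Utrn, Sgca and Dtna were larger, at 12.4 to 39.8 points, so the simulation does not show the power for them. Named were all 8 members, their rows with at least 20 reads, every listed partner past the threshold with the 3 most-read of each group, and the 2 most-read markers of each list, except for genes that are not reported here. Dmd rows, Utrn-213, Sgca-201, Nos1, Aqp4, Sntg1, Sntg2, Sync, Vcl, the further muscle markers and the markers at 0 were named after their values were seen. The members and lists were chosen with earlier results of these data known.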

Additional observations from a re-analysis of the deposited data

Results flagged for a closer look

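Among 6 libraries of a group, a value was marked where its gap to the nearest other exceeded 0.625 of the group's range. Chance marks about 1 in 20 groups of normally distributed values, and 48 groups were looked at. That rate does not cover groups with few reads or tied values, where 1 read can be enough to mark a library. The number of marks was therefore not set against chance. Utrn in co-culture 6 was the highest of its group at 63.4 CPM, with the next at 33.02 CPM. Utrn-205 was likewise highest in co-culture 6, at 33.6 CPM, with the next at 6.97 CPM. Utrn-201 was highest among controls in control 5, at 14.1 CPM, with the other controls at 0. Sgca-202 was lowest among co-cultures in co-culture 4, at 0 CPM, with the next at 34.2 CPM.

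The share of Sgca reads on its main row was 0% in co-culture 4, with the next at 82.6%, and 50% in control 5, with the other controls at 100%. The share of Dag1 reads on its main row was lowest at 81.25% in co-culture 5, with the next at 93.3%, and at 81.25% in control 6, with the next at 97.5%. The share of Sntb1 reads on its main row was 85.7% in co-culture 5, with the other co-cultures at 100%. These shares rest on few reads, with 3 Sgca reads in co-culture 4 and 4 in control 5. What sets these libraries apart was not tested.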

How the results depend on the processing

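The number of members called stayed at 0 for genes with and without a filter, and for rows past the filter, under each edgeR and limma-voom alternative run and with each library left out. DESeq2 gave none of the 8 genes an adjusted p, the adjusted share test could call no gene, and no member was tested in NSC34, so those counts of 0 show nothing on stability. The partner list had 0 genes called, 1 with library totals, 2 with DESeq2, and 0 to 1 with a library left out. Utrn stayed below 0 throughout (-0.82 to -0.49; -1.01 to -0.62 with a library left out). The fold changes whose sign turned all had intervals that include 0, and the cause was not tested. With libraries under 150000 reads left out the log2 values were 0.14 for Sntb1, -0.067 for Dag1, -0.082 for Dag1-204, -0.12 for Sgca-202, -0.10 for Sspn, -0.12 for Dpm2, -0.040 for Hspg2 and -0.013 for Ank3, and the Dtna share differed by -6.16 points. Without controls 1 and 4, Dtna had -0.035, Sntb1 0.13, Dag1 -0.071, Sspn -0.050, Dpm2 -0.043 and Ank3 -0.028. With library totals Dtna had -0.045 and Sspn -0.0084. With limma-voom Dmd had -0.11, Sntb1 0.012, Dpm3 -0.027 and Lama2 0.13. With the length trend removed Sntb1 had 0.14 and Dpm3 -0.010. With a library left out, the range held both signs for Dmd (-0.0080 to 0.83), Dtna (-0.064 to 0.21), Sntb1 (-0.31 to 0.22), Dag1 (-0.083 to 0.19), Dag1-204 (-0.085 to 0.18), Dtna-201 (-0.0062 to 0.57), Sgca-202 (-0.037 to 0.38), Sntb1-201 (-0.35 to 0.12), Sspn (-0.11 to 0.39), Dpm3 (-0.14 to 0.13), Dpm1 (-0.26 to 0.22), Hspg2 (-0.15 to 0.34), Lama2 (-0.56 to 0.14) and Ank3 (-0.086 to 0.46), and for the shares of Dtna (-2.22 to 9.78 points), Dag1 (-4.40 to 1.41) and Sgca (-20.7 to 3.52).

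The replicate numbers did not pair the libraries: same-numbered libraries deviated together with r = -0.054 to 0.105 across genes, and 1 of 6 controls correlated best with its own number. With the number as a replicate block, Utrn was at -0.72 (edgeR adjusted p = 0.584), Dpm3 at -0.050, members called stayed at 0, and 26 of 2570 genes passed against 37 without it. With the block and the length trend removed, Sntb1 was at 0.16 and Dpm3 at -0.088.

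Depth limits these values. Of the 8 members 6 did not reach the filter, and Dmd and Sntb2 had 8 and 23 reads over 12 libraries.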
